A study of Mus musculus with 8 samples.

Results

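The expression of 39 genes of the ATF4 programme was followed in ILC2, the group 2 innate lymphoid cells, which make type 2 cytokines without an antigen receptor. The genes were given by symbol, matched to Ensembl IDs by GENCODE mouse M21 names, and made up 39 of the 50686 genes in the table. They comprised 11 transcriptional and stress regulators, 7 amino acid transporters, 10 enzymes of amino acid and one-carbon metabolism and 11 cytosolic tRNA synthetases. Total RNA of ILC2 from the thymus of C57BL/6 mice carrying the plck-Id1 transgene had been sequenced. Id1 is an inhibitor of E proteins, and plck names the proximal Lck promoter, which is active in early T cell development. In E47-ER cells the MIGR1 retroviral vector carried GFP together with E47-ER, a fusion of the E protein E47 to the estrogen receptor that is made active by 4-hydroxytamoxifen. In GFP cells the vector carried GFP alone. Cells sorted for GFP were expanded with IL-33, IL-25 and also IL-7. The 4 groups, of 2 libraries each, were E47-ER cells and GFP cells given 4-hydroxytamoxifen for 4 h, and E47-ER cells and GFP cells given it for 16 h. The transgene, the vector, GFP, the cytokines and the drug were thus shared by all groups, and no E47-ER library without the drug was analysed here. A response to E47 activity and a difference already there before treatment cannot be told apart. In what follows, fell and rose mean lower or higher in E47-ER cells than in GFP cells at the same time. They do not mean a change from before treatment or between times. Whether the replicates are separate mice or cultures is not in the labels. The p-values therefore measure the spread between these libraries alone, and that spread may be technical.

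ATF4 is the transcription factor of the integrated stress response. When amino acids run short or unfolded protein accumulates, kinases phosphorylate the translation factor eIF2, most translation slows, and the Atf4 message is translated more. ATF4 then binds composite C/EBP-ATF sites and turns on amino acid transporters, biosynthetic enzymes, tRNA synthetases and its own feedback regulators. Growth signals that pass through mTORC1 also raise ATF4, so the same genes accompany the growth of activated lymphocytes.

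Total counts ran from 8813782 to 18677675 per library. The lowest total belonged to replicate 2 of GFP at 16 h, which stood apart from the other libraries. Among the 39 genes, its median absolute log2 difference from replicate 1 was 0.355, while the E47-ER replicates differed by 0.0997 at 4 h and 0.124 at 16 h and the GFP replicates at 4 h by 0.156. Among all tested genes, those with a short exon length were higher in it than in replicate 1, by a median log2 difference of 0.41 in the shortest of 3 length classes and -0.26 in the longest. The corresponding medians in 3 classes of the 39 genes were 0.22 and -0.01. Results are therefore given for all 8 libraries and again for the 7 that remain when this one is left out, called the 7-library fit, in which the spread of the other groups stands in for that of the single 16 h GFP library. Construct expression followed the labels: Tcf3, the gene that encodes E47, stood at 146 to 170 CPM (counts scaled to library size, with TMM factors) in E47-ER libraries and 67.6 to 87.6 CPM in GFP libraries, and Esr1, the estrogen receptor gene, at 43.8 to 54.5 CPM in E47-ER libraries and 0.211 to 0.932 CPM in GFP libraries. Id1, the gene of the shared transgene, stood at 59.9 to 81.4 CPM in E47-ER libraries and 13.8 to 36.8 CPM in GFP libraries, without overlap, and reads of the transgene and of the cell's own gene were not separated. All 12 ILC2 markers were detected, with summed levels of 18300 to 19900 CPM in E47-ER cells and 20900 to 28000 CPM in GFP cells. Most of the sum came from the cytokine genes Il5 (3580 to 3890 CPM in E47-ER cells and 4600 to 7770 CPM in GFP cells) and Il13 (5610 to 6700 CPM and 8060 to 9850 CPM). Other markers on the list stood higher in every E47-ER library, namely Rora (128 to 158 CPM in E47-ER cells and 69.3 to 81.1 CPM in GFP cells), Id2 (1470 to 1850 CPM and 773 to 1310 CPM), Thy1 (279 to 345 CPM and 165 to 235 CPM) and Il17rb (10.7 to 15.6 CPM and 6.39 to 9.3 CPM). Markers of other lineages were at or near 0 for Ncr1, Hba-a2, Hbb-bs, Cd8a, Cd8b1 and Lyz2, while Cd3e stood at 26 to 38.3 CPM, Prf1 at 25.4 to 47.1 CPM and Pecam1 at 123 to 173 CPM. At 16 h, 6 T cell markers summed to 38.9 to 44.8 CPM in E47-ER cells and 29.4 to 34.8 CPM in GFP cells. Most of this came from Cd3e. The sum over 4 NK cell markers was 39.3 to 47.1 CPM and 25.4 to 31.5 CPM, nearly all from Prf1. That over 6 markers of stroma and epithelium was 188 to 201 CPM and 137 to 166 CPM, mostly from Pecam1. Within that list, Epcam stood at 20.4 to 22.2 CPM in E47-ER cells and 5.98 to 8.79 CPM in GFP cells. The sum over 6 myeloid markers was 8.13 to 8.9 CPM in E47-ER cells and 4.44 to 6.07 CPM in GFP cells at 4 h, and 7.61 to 9.06 CPM and 4.79 to 6.25 CPM at 16 h, without overlap. The sum over 4 erythroid markers stayed at or under 1.46 CPM in every library. The part of these markers in the results was not tested. In bulk samples such as these, fewer cells of a type and less RNA per cell cannot be told apart.

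In GFP cells at 4 h, the 39 genes spanned a wide range of levels. Per kilobase of exon, Ddit4, an inhibitor of mTORC1 signalling, was highest at 184 CPM per kb, followed by Atf4 itself at 165. Nupr1, a small stress-induced chromatin protein, stood at 71.6 CPM per kb, and the glycyl and asparaginyl tRNA synthetase genes Gars and Nars at 63.8 and 56.2. At the low end, Cth, Slc1a4, Pycr1 and Slc7a11 stood at 2.24, 1.85, 1.2 and 0.789 CPM per kb, and Atf3 at 0.286. Several of the genes described next therefore rested on few reads, with 877 counts for Slc7a11, 546 for Cth, 419 for Pycr1 and 77 for Atf3 over all 8 libraries. All 39 passed the filter on low counts, which left 13644 genes in the test.

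The promoters of the 39 genes were searched for the C/EBP-ATF site TGATGNAA, since many of the genes are known ATF4 targets and most had lower values in E47-ER cells. RefSeq promoter windows (GRCm38.p6, 250 bases before to 50 bases after the start) were found for 32 of the 39 genes, and both strands were read. The site was present in 13 of these 32 genes, or 40.6%, and in 3.97% of all 32851 windows. The form TGATGCAA, which is contained in TGATGNAA, was present in 10 of the 32, or 31.2%, and in 0.895% of all windows. The E-box CAGCTG, of a type that E proteins can bind, was present in 6 of the 32, or 18.8%, and in 16.3% of all windows. The E-box CAGGTG was present in 3 of the 32, or 9.38%, and in 20.2% of all windows. The shares of the 32 count genes, while those of all windows count windows. The 32 genes had 36 windows, of which 13 held TGATGNAA, 10 TGATGCAA, 6 CAGCTG and 3 CAGGTG. Because the list was drawn up around ATF4, its share of the C/EBP-ATF site is not independent of how the genes were chosen. A match is a description of the sequence and not evidence of binding. The 250 bases before the start are shown for 5 genes that carry the site and whose log2 fold changes at 4 h were among the lowest, with the site in capitals.
Nupr1, chr7:126625471-126625720, minus strand: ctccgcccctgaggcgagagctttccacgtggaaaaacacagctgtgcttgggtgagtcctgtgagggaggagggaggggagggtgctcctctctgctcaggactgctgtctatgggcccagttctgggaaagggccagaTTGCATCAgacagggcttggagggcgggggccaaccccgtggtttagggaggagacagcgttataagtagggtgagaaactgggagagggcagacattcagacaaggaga
Chac1, chr2:119350992-119351241, plus strand: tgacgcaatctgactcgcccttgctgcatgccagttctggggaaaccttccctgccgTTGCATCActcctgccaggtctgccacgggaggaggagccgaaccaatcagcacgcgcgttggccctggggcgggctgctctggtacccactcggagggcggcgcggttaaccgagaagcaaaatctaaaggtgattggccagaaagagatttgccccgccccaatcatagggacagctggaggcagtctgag
Slc7a11, chr3:50443614-50443863, minus strand: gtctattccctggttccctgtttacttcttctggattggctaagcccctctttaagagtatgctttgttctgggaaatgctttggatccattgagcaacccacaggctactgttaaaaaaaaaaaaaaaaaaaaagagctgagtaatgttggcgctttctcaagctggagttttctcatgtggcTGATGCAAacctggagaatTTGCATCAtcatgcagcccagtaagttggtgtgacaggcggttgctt
Asns, chr6:7693210-7693459, minus strand: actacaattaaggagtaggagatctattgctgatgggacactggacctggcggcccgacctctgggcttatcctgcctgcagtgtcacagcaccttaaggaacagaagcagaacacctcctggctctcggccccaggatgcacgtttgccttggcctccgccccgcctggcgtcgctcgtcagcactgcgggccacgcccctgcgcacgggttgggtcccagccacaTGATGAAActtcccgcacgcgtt
Pycr1, chr11:120643749-120643998, minus strand: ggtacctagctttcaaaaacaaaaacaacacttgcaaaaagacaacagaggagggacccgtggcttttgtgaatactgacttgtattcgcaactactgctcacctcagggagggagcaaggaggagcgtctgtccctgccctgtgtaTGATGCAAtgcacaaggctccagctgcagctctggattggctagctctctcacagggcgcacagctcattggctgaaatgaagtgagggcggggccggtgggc
For 7 other genes with a match, the site and its flanks are shown in runs of 30 bases, again with the site in capitals, so that the shared core can be compared.
Atf3, chr1:191183425-191183454, minus strand: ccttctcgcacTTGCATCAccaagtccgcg
Trib3, chr2:152344028-152344057, minus strand: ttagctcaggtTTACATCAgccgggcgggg
Slc1a4, chr11:20332699-20332728, minus strand: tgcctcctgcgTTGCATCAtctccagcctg
Gars, chr6:55037960-55037989, plus strand: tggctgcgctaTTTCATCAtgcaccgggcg
Yars, chr4:129189895-129189924, plus strand: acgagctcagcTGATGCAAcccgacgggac
Tars, chr15:11399655-11399684, minus strand: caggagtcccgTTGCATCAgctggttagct
Iars, chr13:49682126-49682155, plus strand: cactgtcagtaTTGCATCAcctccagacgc
The site reads as TGATGCAA on the gene's strand in Yars and Pycr1 and at the first of the pair in Slc7a11, and as TTGCATCA, its reverse complement, in Nupr1, Chac1, Atf3, Slc1a4, Tars and Iars. The Asns site TGATGAAA begins 23 bases before the start, and the 2 Slc7a11 sites begin 66 and 47 bases before it.

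At 4 h, most of the 39 genes stood lower in E47-ER cells than in GFP cells, but by small amounts. The log2 fold change was negative for 35 and positive for 4, against 50.9% negative among all tested genes. The median was -0.15, against -0.0043 for all tested genes. It was -0.11 without the first GFP library of that time and -0.26 without the second, so its size depended on which was kept. In 27 of the 39, both E47-ER libraries lay below both GFP libraries, which held for 22.9% of tested genes, and in 0 did both lie above, against 22.4%. None passed the threshold with all 8 libraries: 0 of 39 were called lower at an adjusted p under 0.05 by edgeR's quasi-likelihood test, where 0.0147% of tested genes were, and 0 were called higher, against 0.271%. At an unadjusted p under 0.05, 10 of the 39 were lower, against 2.39% of tested genes, and DESeq2 called 2 lower, against 0.125%, and limma voom 6, against 0.975%. The library left out of the 7-library fit enters this comparison through the estimate of the spread. In that fit the median was again -0.15, 12 of the 39 were called lower, against 1.68% of tested genes, and 0 were called higher, against 2.64%. These were Atf4, Nupr1, Chac1, Slc7a11, Slc1a4, Asns, Psat1, Shmt2, Pycr1, Bcat1, Cth and Gars. Leaving out the other 16 h GFP library instead gave the same 12, against 1.72% of tested genes called lower. Both fits compared the same 4 h libraries, and in each the single 16 h GFP library that remained added nothing to the spread. The spread thus came from the same libraries, so this agreement is not an independent check of the 12 calls.

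At 16 h, Nupr1 and Slc7a11 were lower in E47-ER cells than in GFP cells with all 8 libraries, and most other members again stood lower. Nupr1 and Slc7a11 were the only 2 members called lower among 39, against 0.337% of tested genes, and 0 were called higher, against 1.25%. The log2 fold change was negative for 35 of the 39, against 50.4% of tested genes, and the median was -0.40, against -0.0057 for all tested genes. With library totals only it was -0.24, against 0.115 for all tested genes. Both E47-ER libraries lay below both GFP libraries for 25 of the 39, against 26.6% of tested genes, and above them for 2, against 27.8%. At an unadjusted p under 0.05, 21 were lower, against 13.6% of tested genes, and 1 was higher. In the 7-library fit, 19 of the 39 were called lower, against 4.53% of tested genes, 0 were called higher, against 4.39%, and the median was -0.40. With replicate 1 of that group left out instead, 20 were called lower, against 24.4% of tested genes, and 5 higher, against 24.3%. The 5 were Sesn2, Slc7a1, Aldh18a1, Aars and Iars. Of the 39 genes, 20 lay below GFP without overlap at both times, against 10.4% of tested genes. No library is shared between the comparisons at 4 h and 16 h. The labels do not say whether the cells of both times came from the same cultures. Agreement between the times is therefore not shown to be an independent check. Of the 39, 10 were called lower at both times in the 7-library fit, against 0.968% of tested genes.

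**Figure D1:**
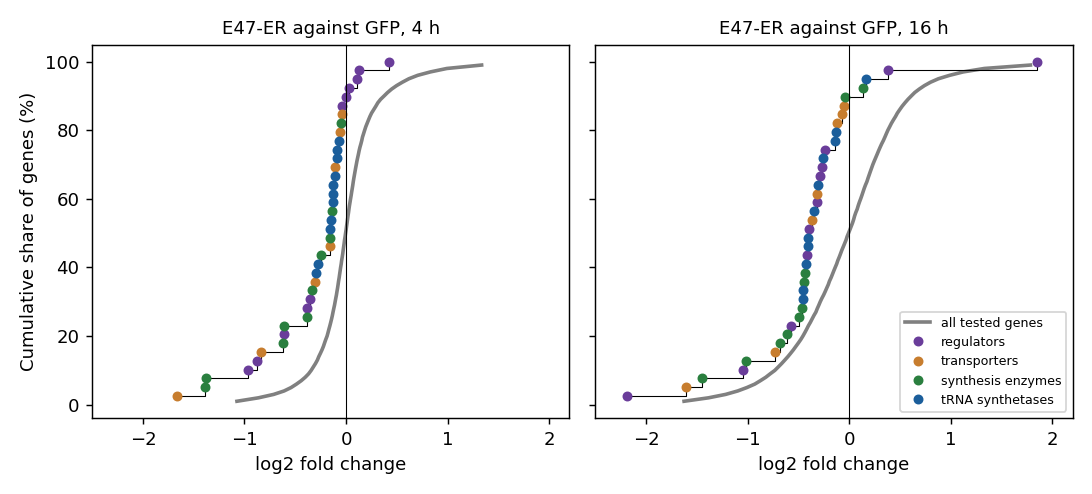
Cumulative share of genes (vertical axis, percent) against the log2 fold change of E47-ER over GFP cells (horizontal axis) at 4 h and 16 h with all 8 libraries. Points are the 39 genes coloured by role and the grey line is all 13644 tested genes from the 1st to the 99th percentile; the points lie left of the line through most of the range, with medians of -0.15 at 4 h and -0.40 at 16 h.

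**Figure D2:**
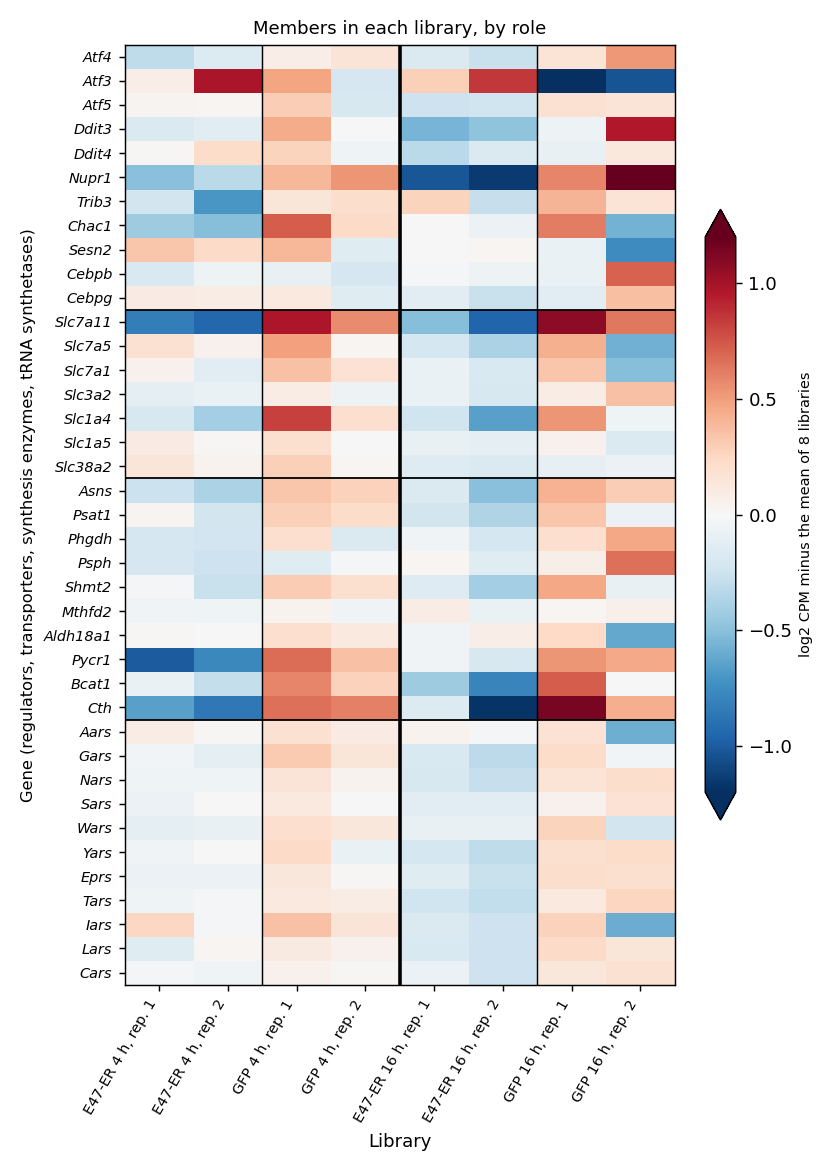
Level of each of the 39 genes in each of the 8 libraries, as log2 CPM minus the gene's mean over the libraries, ordered by role from regulators at the top to tRNA synthetases at the bottom. Blue is below and red above the gene's mean, and colours stop at the ends of the bar; replicate 2 of GFP at 16 h, the last column, differs in several genes from replicate 1.

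Among the regulators, Nupr1 was the only one called with all 8 libraries, at 16 h. Nupr1 (ENSMUSG00000030717; chromosome 7, 126623249 to 126630861, GRCm38) stood at 91.9 and 104 CPM in E47-ER cells and at 172 and 188 CPM in GFP cells at 4 h. At 16 h it stood at 64 and 59 CPM in E47-ER cells and at 196 and 365 CPM in GFP cells. All E47-ER libraries lay below all GFP libraries, and the widest gap between replicates was between the GFP libraries at 16 h. At 4 h Nupr1 was 1.84-fold lower (log2 fold change -0.88, SE 0.258, adjusted p = 0.489), a difference that did not pass the threshold. At 16 h it fell 4.55-fold (log2 fold change -2.18, SE 0.268, adjusted p = 0.0102). Nupr1 fell in the 7-library fit as well, 1.84-fold at 4 h (adjusted p = 3.71e-07) and 3.2-fold at 16 h (log2 fold change -1.68 with SE 0.103, adjusted p = 2.08e-10). The call at 16 h was lost when replicate 1 or replicate 2 of E47-ER at 16 h was left out (adjusted p = 0.108 and 0.176).

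Atf4, which encodes the factor itself, differed less. Atf4 (ENSMUSG00000042406; chromosome 15, 80255184 to 80257541) stood at 290 and 320 CPM in E47-ER cells and at 380 and 399 CPM in GFP cells at 4 h. At 16 h it stood at 318 and 298 CPM in E47-ER cells and at 401 and 513 CPM in GFP cells. The groups did not overlap at either time. The log2 fold change was -0.35 at 4 h (SE 0.152, adjusted p = 0.854) and -0.57 at 16 h (SE 0.152, adjusted p = 0.115), and neither passed the threshold. Atf4 fell at both times in the 7-library fit, by 0.35 (adjusted p = 0.00914) and 0.39 (adjusted p = 0.0102) on the log2 scale. These values are RNA levels, and ATF4 protein, which is controlled largely in translation, was not measured.

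Trib3 encodes a pseudokinase that feeds back on ATF4, and Ddit3 encodes CHOP, a transcription factor of prolonged stress. Trib3 (ENSMUSG00000032715; chromosome 2, 152337422 to 152344032) stood at 13 and 9.35 CPM in E47-ER cells and at 16.8 and 17.5 CPM in GFP cells at 4 h. Its values at 16 h were 18.2 and 12.5 CPM in E47-ER cells and 20.1 and 17 CPM in GFP cells. The groups were apart at 4 h and overlapped at 16 h, and neither difference passed the threshold (log2 fold change -0.62, SE 0.232, adjusted p = 0.749 at 4 h, and -0.28, SE 0.231, adjusted p = 0.451 at 16 h). Ddit3 (ENSMUSG00000025408; chromosome 10, 127290774 to 127296288) stood at 27.7 and 28.6 CPM in E47-ER cells and at 42.4 and 31.2 CPM in GFP cells at 4 h. Its values at 16 h were 21.2 and 22.4 CPM in E47-ER cells and 29.9 and 60.7 CPM in GFP cells. The groups were apart at both times, with the highest value in the GFP library that stood apart. The log2 fold change was -0.38 at 4 h (SE 0.301, adjusted p = 1) and -1.04 at 16 h (SE 0.307, adjusted p = 0.133), or -0.46 at 16 h in the 7-library fit (adjusted p = 0.0688). Of the Ddit3 exon bases, 3.97% overlap the opposite-strand gene Mars, and the strand setting of the counts is not given in the sources used here.

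Chac1, which encodes a glutathione-degrading enzyme induced by ATF4, stood at 3.65 and 3.45 CPM in E47-ER cells and at 8.16 and 5.76 CPM in GFP cells at 4 h. These did not overlap, with a log2 fold change of -0.96 (adjusted p = 0.734, and 0.0125 in the 7-library fit). At 16 h they overlapped, at 4.94 and 4.68 CPM in E47-ER cells against 7.52 and 3.33 CPM in GFP cells. The remaining regulators gave no common direction. Ddit4 had a log2 fold change of -0.0024 at 4 h and -0.27 at 16 h, and its groups overlapped at 4 h. Cebpb and Cebpg, which encode dimer partners of ATF4, had 0.03 and 0.11 at 4 h. At 16 h they had -0.40 and -0.32 with all libraries and 0.03 and -0.06 in the 7-library fit. For Cebpb, 20.74% of exon bases overlap the opposite-strand gene Tmem189. Sesn2, which encodes a leucine sensor of the mTORC1 pathway, had 0.13 at 4 h and 0.38 at 16 h. Atf5, which encodes a related bZIP factor, had -0.04 and -0.41. None of these 5 passed the threshold at either time, in either set of libraries. Atf3, a repressive partner factor, stood at 0.668 and 0.981 CPM in E47-ER cells and at 0.202 and 0.266 CPM in GFP cells at 16 h. Both E47-ER libraries lay above both GFP libraries (log2 fold change 1.85, adjusted p = 0.16), from the fewest reads of any of the 39 genes.

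**Figure D3:**
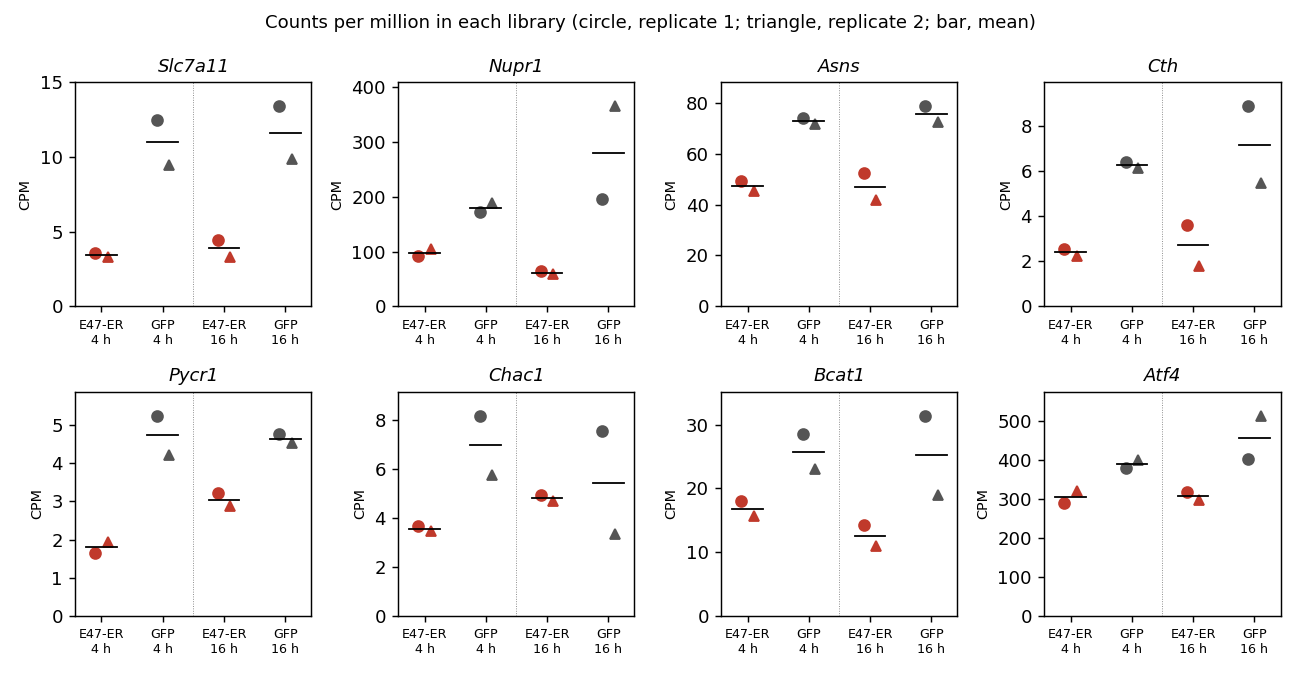
CPM in each library for 8 genes, with replicate 1 as a circle, replicate 2 as a triangle and the mean as a bar, E47-ER cells in red and GFP cells in grey, and each axis starting at 0. Slc7a11, Nupr1, Asns, Cth and Pycr1 have both E47-ER libraries below both GFP libraries at each time, whereas Chac1 overlaps at 16 h.

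Of the transporters, Slc7a11 stood out. It encodes xCT, the exchanger that takes up cystine in return for glutamate and so feeds glutathione synthesis. Slc7a11 (ENSMUSG00000027737; chromosome 3, 49892526 to 50443614) stood at 3.58 and 3.31 CPM in E47-ER cells and at 12.5 and 9.46 CPM in GFP cells at 4 h. At 16 h it stood at 4.47 and 3.29 CPM in E47-ER cells and at 13.4 and 9.85 CPM in GFP cells. Every E47-ER library lay well below every GFP library. The gene was 3.17-fold lower at 4 h (log2 fold change -1.67 with SE 0.261, adjusted p = 0.0608), short of the threshold, and fell 3.04-fold at 16 h (log2 fold change -1.60 with SE 0.261, adjusted p = 0.0271). In the 7-library fit Slc7a11 fell at both times, 3.16-fold at 4 h (adjusted p = 1.44e-05) and 3.5-fold at 16 h (adjusted p = 1.71e-05). The call at 16 h with all 8 libraries was lost when any 1 library of the 4 h groups was left out (adjusted p = 0.0749 to 0.0859), and when replicate 1 or replicate 2 of E47-ER at 16 h was left out (adjusted p = 0.146 and 0.332).

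Slc1a4, which encodes a transporter of alanine, serine, cysteine and threonine, stood at 4.35 and 3.74 CPM in E47-ER cells and at 8.79 and 5.71 CPM in GFP cells at 4 h. Its values at 16 h were 4.21 and 3.17 CPM in E47-ER cells and 7.19 and 4.79 CPM in GFP cells. The groups were apart at both times, and the log2 fold changes of -0.83 and -0.73 did not pass the threshold with all 8 libraries and did in the 7-library fit (adjusted p = 0.0493 at 4 h and 0.0344 at 16 h). The chains of the large neutral amino acid transporter had smaller differences with all libraries. Slc7a5, its light chain LAT1, stood at 105 and 93.3 CPM in E47-ER cells and at 164 and 81.5 CPM in GFP cells at 16 h, so that the groups overlapped. Its log2 fold change at 16 h was -0.32 (adjusted p = 0.515), or -0.74 in the 7-library fit (adjusted p = 0.0188). Slc3a2, the heavy chain that LAT1 and xCT share, had -0.11 at 4 h and -0.36 at 16 h. Slc7a1, the cationic amino acid transporter for arginine and lysine, had -0.30 and -0.12, and passed the threshold at 16 h in the 7-library fit (log2 fold change -0.48, adjusted p = 0.0103). With replicate 1 of GFP at 16 h left out instead, Slc7a1 was called in the other direction (0.40, adjusted p = 0.0163), and Slc7a5 stood at 0.30 (adjusted p = 0.184). The glutamine and neutral amino acid transporters Slc1a5 and Slc38a2 ranged from -0.07 to -0.04 over both times with all libraries. All 7 transporters had negative values at both times, with medians of -0.16 at 4 h and -0.32 at 16 h, but scaling by library totals only put Slc1a5 at 0.07 and Slc38a2 at 0.05 at 16 h.

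The biosynthetic enzymes were the group with the lowest median, at -0.36 at 4 h and -0.48 at 16 h. At 4 h, all 10 had both E47-ER libraries below both GFP libraries. Asns (ENSMUSG00000029752; chromosome 6, 7675169 to 7693254), asparagine synthetase, stood at 49.4 and 45.3 CPM in E47-ER cells and at 74.2 and 71.5 CPM in GFP cells at 4 h. At 16 h it stood at 52.4 and 41.7 CPM in E47-ER cells and at 78.6 and 72.3 CPM in GFP cells. At both times the groups lay apart by a similar amount. The log2 fold change was -0.62 at 4 h (SE 0.147, adjusted p = 0.295) and -0.68 at 16 h (SE 0.148, adjusted p = 0.0705), short of the threshold at both. Asns fell in the 7-library fit, by 0.62 at 4 h (adjusted p = 0.000502) and by 0.75 at 16 h (adjusted p = 0.000274) on the log2 scale.

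Bcat1 (ENSMUSG00000030268; chromosome 6, 144993835 to 145076184), the cytosolic transaminase of leucine, isoleucine and valine, stood at 18 and 15.6 CPM in E47-ER cells and at 28.5 and 23 CPM in GFP cells at 4 h. At 16 h it stood at 14.2 and 11 CPM in E47-ER cells and at 31.4 and 19 CPM in GFP cells. The groups did not overlap at either time. The log2 fold change was -0.61 at 4 h (SE 0.253, adjusted p = 0.818) and -1.02 at 16 h (SE 0.26, adjusted p = 0.107). Bcat1 likewise fell in the 7-library fit, by 0.61 at 4 h (adjusted p = 0.0106) and by 1.33 at 16 h (adjusted p = 9.58e-06) on the log2 scale.

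Pycr1 and Cth had the lowest log2 fold changes of the enzymes at 4 h, from few reads. Pycr1, the last enzyme of proline synthesis, stood at 1.66 and 1.94 CPM in E47-ER cells and at 5.25 and 4.23 CPM in GFP cells at 4 h. Its values at 16 h were 3.21 and 2.89 CPM in E47-ER cells and 4.77 and 4.53 CPM in GFP cells. The gap was narrower at 16 h, with log2 fold changes of -1.39 at 4 h (adjusted p = 0.0986) and -0.61 at 16 h (adjusted p = 0.182). Cth, the cystathionine gamma-lyase that makes cysteine, stood at 2.56 and 2.23 CPM in E47-ER cells and at 6.39 and 6.13 CPM in GFP cells at 4 h. At 16 h its values were 3.61 and 1.79 CPM in E47-ER cells and 8.87 and 5.46 CPM in GFP cells. Both times had E47-ER apart from GFP, with log2 fold changes of -1.38 at 4 h (adjusted p = 0.394) and -1.45 at 16 h (adjusted p = 0.104). The 7-library fit called Pycr1 lower at 4 h (adjusted p = 0.0023), and in it Cth fell at both times (adjusted p = 0.00288 and 0.000476).

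Psat1, Phgdh and Psph make serine from glycolytic intermediates, and Shmt2 and Mthfd2 carry its carbon into mitochondrial folate. Psat1 stood at 152 and 128 CPM in E47-ER cells and at 181 and 173 CPM in GFP cells at 4 h, and Shmt2 at 137 and 116 CPM in E47-ER cells against 172 and 159 CPM in GFP cells. Both genes were lower without overlap, with log2 fold changes of -0.34 and -0.39 at 4 h and of -0.44 and -0.49 at 16 h. Neither passed the threshold with all 8 libraries, and both did at both times in the 7-library fit (log2 fold changes at 16 h of -0.63 for Psat1, adjusted p = 0.000302, and -0.75 for Shmt2, adjusted p = 0.00014). Phgdh had -0.24 at 4 h and -0.46 at 16 h, and Psph, of whose exon bases 10.44% overlap the opposite-strand gene Cct6a, had -0.14 and -0.45. Mthfd2 had -0.05 and -0.04, with a 95% interval of -0.32 to 0.23 at 4 h. Aldh18a1, the first enzyme of proline synthesis, had -0.16 at 4 h, and at 16 h 0.14 with all libraries and -0.23 in the 7-library fit. None of Phgdh, Psph, Mthfd2 and Aldh18a1 passed the threshold at 4 h or 16 h in either set of libraries.

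The tRNA synthetases, which charge tRNAs with their amino acids, had small differences of mostly 1 sign. At 4 h, all 11 had negative log2 fold changes, from -0.30 for Gars to -0.07 for Cars, with a median of -0.13. At 16 h, 10 of 11 were negative, from -0.46 for Yars to 0.17 for Aars, with a median of -0.35. None passed the threshold with all 8 libraries. At 16 h, 7 had an unadjusted p under 0.05, all lower, against 13.6% of tested genes lower at that level. Tars, the threonyl enzyme, stood at 99.1 and 95.2 CPM in E47-ER cells and at 127 and 140 CPM in GFP cells at 16 h, a log2 fold change of -0.46 (adjusted p = 0.112). Nars stood at 200 and 189 CPM in E47-ER cells and at 256 and 264 CPM in GFP cells at 16 h, a log2 fold change of -0.42 (adjusted p = 0.126). Eprs, the bifunctional glutamyl-prolyl enzyme, stood at 158 and 145 CPM in E47-ER cells and at 202 and 200 CPM in GFP cells at 16 h, a log2 fold change of -0.41 (adjusted p = 0.133). In these 3 genes the groups were apart and both GFP libraries had similar values. By contrast, Aars, Iars and Wars had values of 144, 55.7 and 60.6 CPM in replicate 2 of GFP at 16 h and of 244, 102 and 84.8 CPM in replicate 1, and their groups overlapped. The 7-library fit had all 11 lower at 16 h, from -0.50 for Iars to -0.17 for Aars, and 8 were called: Gars, Nars, Wars, Yars, Eprs, Tars, Iars and Lars. With replicate 1 of GFP at 16 h left out instead, Iars was called higher (log2 fold change 0.40, adjusted p = 0.0147) and Wars stood at 0.15 (adjusted p = 0.29). At 4 h in the 7-library fit, Gars had the lowest log2 fold change of the synthetases, at -0.29. Its values at 4 h were 166 and 158 CPM in E47-ER cells and 211 and 188 CPM in GFP cells.

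**Figure D4:**
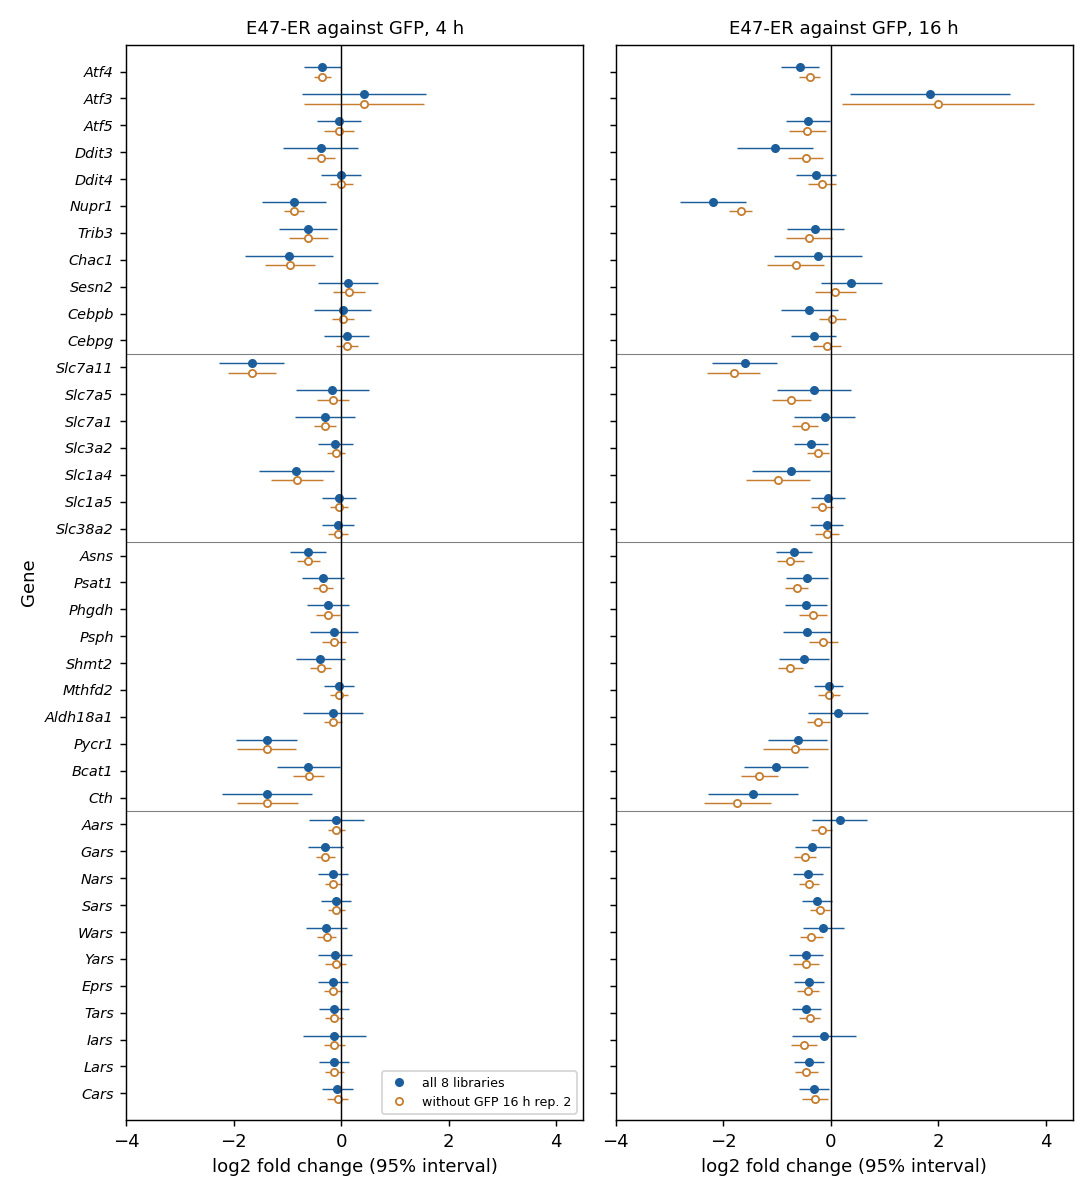
Log2 fold change of E47-ER over GFP cells (horizontal axis, with 95% intervals as lines) for each of the 39 genes, at 4 h and at 16 h, grouped by role from regulators to tRNA synthetases. Filled points are all 8 libraries and open points are the 7-library fit; the filled points of Slc7a11 lie at -1.67 and -1.60, while those of the tRNA synthetases lie between -0.46 and 0.17.

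Few of the 39 genes had large differences. Differences below -1 on the log2 scale with all 8 libraries were found for 3 genes at 4 h (Slc7a11, Pycr1 and Cth), against 1.23% of tested genes. At 16 h there were 5 such genes (Nupr1, Slc7a11, Cth, Ddit3 and Bcat1), against 5.08%, and in the 7-library fit 4, against 2.57%. Genes with the site TGATGNAA had a median log2 fold change of -0.62 at 4 h, against -0.14 for the 19 genes whose window lacked it. At 16 h the medians were -0.46 and -0.40 with all 8 libraries, and -0.50 and -0.23 in the 7-library fit. Both sets included genes at either end: Atf3, Yars and Iars carry the site with values between -0.13 and 0.42 at 4 h, and Bcat1 lacks it in the window searched. No window was given for Slc7a5, Slc1a5, Cth, Nars, Wars, Lars and Cars.

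With all 8 libraries, none of the 39 genes passed the test for a change with time. Between 16 h and 4 h in E47-ER cells, 0 of 39 were called by edgeR's quasi-likelihood test (0.0147% of tested genes in either direction). At an unadjusted p under 0.05 there were 2, of which 1 was lower, against 2.1% of tested genes. DESeq2 called 0 and limma voom 1, and the median log2 fold change was -0.13. The largest values there were 0.75 for Pycr1 and -0.67 for Nupr1 (adjusted p = 0.981 for each). In the 7-library fit, 15 of the 39 were lower at an unadjusted p under 0.05, against 9.15% of tested genes. In GFP cells, 0 of 39 were called by the same test (0% of tested genes), and 2 had an unadjusted p under 0.05, of which 0 were lower, against 2.12% of tested genes. DESeq2 and limma voom each called 0, and the median was 0.05. For Atf3 the change was -1.41 on the log2 scale (adjusted p = 0.5). The difference between the E47-ER effects at 16 h and 4 h was called for 0 of 39 (0% of tested genes), with 1 gene, Nupr1, lower at an unadjusted p under 0.05, against 2.73% of tested genes, and 0 calls by DESeq2 and limma voom. Nupr1 had a difference between the effects of -1.31 (SE 0.365, adjusted p = 0.699). The 7-library fit called Nupr1 alone of the 39 for this difference, at -0.80 (SE 0.135, adjusted p = 0.0137), where 0.0212% of tested genes were called lower. In that fit it was also the only member called between 16 h and 4 h in E47-ER cells, against 1.34% of tested genes called lower. For Slc7a11 and Asns the difference between the effects was 0.06 (95% interval -0.78 to 0.91) and -0.06 (95% interval -0.54 to 0.41).

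Other genes of the same pathways were described from 9 lists with 148 genes, of which 141 were tested. With all 8 libraries, 0 of the 141 were called at 4 h by edgeR's quasi-likelihood test, against 0.286% of tested genes. By the same test 13 had an unadjusted p under 0.05, against 794 of the 13644 tested genes. DESeq2 called 2, against 0.894% of tested genes, and limma voom 9, against 2.94%. At 16 h, 1 was called higher and 1 lower, against 1.25% and 0.337% of tested genes, both on the list of other ATF4 targets. Eif4ebp1, which encodes the translation repressor 4E-BP1, stood at 43.6 and 41 CPM in E47-ER cells and at 80.1 and 121 CPM in GFP cells at 16 h, and fell by 1.24 on the log2 scale (SE 0.191, adjusted p = 0.0231). Jdp2, which encodes a repressive bZIP factor, stood at 193 and 203 CPM in E47-ER cells and at 127 and 105 CPM in GFP cells, and rose by 0.77 (SE 0.141, adjusted p = 0.0416). Both genes had groups that did not overlap. Both calls were lost when any 1 library outside the GFP cells at 16 h was left out (adjusted p = 0.0694 to 0.291 for Eif4ebp1 and 0.112 to 0.43 for Jdp2). In the 7-library fit, 14 of the 141 were called at 4 h, 5 higher and 9 lower, against 2.64% and 1.68% of tested genes, and 27 at 16 h, 5 higher and 22 lower, against 4.39% and 4.53%. There, genes called at both times included Eif4ebp1, the secreted glycoprotein gene Stc2 and the angiogenic factor gene Vegfa, all lower, and Jdp2, higher. The list of 17 other ATF4 targets tested had 11 negative values at 4 h and 13 at 16 h, with medians of -0.15 and -0.35.

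Amino acid transporters outside the 39 genes had positive medians. Of 14 tested, 5 had negative values at 4 h and 3 at 16 h, and the medians were 0.16 and 0.38, or 0.17 and 0.13 in the 7-library fit. Slc7a8, the neutral amino acid exchanger LAT2, stood at 182 and 171 CPM in E47-ER cells and at 117 and 124 CPM in GFP cells at 4 h. At 16 h its values were 156 and 154 CPM in E47-ER cells and 108 and 92.3 CPM in GFP cells. Slc38a1, a glutamine transporter, stood at 329 and 315 CPM in E47-ER cells against 244 and 219 CPM in GFP cells at 4 h. At 16 h its values were 297 and 329 CPM in E47-ER cells and 220 and 137 CPM in GFP cells. For both genes the E47-ER libraries were higher without overlap at both times. Their log2 fold changes at 16 h were 0.63 (adjusted p = 0.061) for Slc7a8 and 0.81 (adjusted p = 0.114) for Slc38a1 with all libraries. Both genes rose at both times in the 7-library fit (at 16 h by 0.51 with adjusted p = 0.00136, and by 0.50 with adjusted p = 0.00226).

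The upstream and neighbouring lists had medians between -0.19 and -0.04 with all 8 libraries. The 16 genes of the eIF2 kinases and eIF2 machinery had medians of -0.05 at 4 h and -0.06 at 16 h, and the 19 genes of the ATF6 and XBP1 branch, the other arms of the unfolded protein response, had -0.05 and -0.04. Other cytosolic tRNA synthetase genes (12, with their scaffold genes) had medians of -0.13 and -0.14, and the 17 mitochondrial synthetases of -0.04 and -0.06. Other serine and one-carbon genes (14) had -0.07 and -0.19, and 12 targets of the oxidative stress factor NRF2 had -0.13 and -0.06. In the 7-library fit the medians at 16 h were -0.13 for the eIF2 list, -0.07 for the ATF6 and XBP1 branch, -0.27 for other cytosolic and -0.14 for mitochondrial synthetases, -0.23 for other serine and one-carbon genes and -0.20 for NRF2 targets, against -0.40 for the 39 genes. Eif2s2, which encodes a subunit of eIF2, stood at 156 and 146 CPM in E47-ER cells and at 190 and 452 CPM in GFP cells at 16 h, the highest value being in the library that stood apart. Its log2 fold change at 16 h was -1.09 (adjusted p = 0.136), and -0.34 in the 7-library fit (adjusted p = 0.0233). Gcsh, a subunit of the glycine cleavage system, had a log2 fold change at 16 h of -1.07 (adjusted p = 0.0562) and of -0.76 in the 7-library fit (adjusted p = 0.00088).

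Among the genes of mTORC1 and MYC, 2 transcription factors of cell growth had low values in E47-ER cells. Mycn stood at 20.3 and 23.7 CPM in E47-ER cells and at 33.9 and 48.5 CPM in GFP cells at 4 h, a log2 fold change of -0.91 (SE 0.204, adjusted p = 0.237). Myc stood at 68.8 and 57.3 CPM in E47-ER cells and at 102 and 118 CPM in GFP cells at 4 h, a log2 fold change of -0.80 (SE 0.204, adjusted p = 0.359). The groups were apart for both at 4 h, and for Mycn but not Myc at 16 h. Mycn and Myc fell in the 7-library fit at 4 h (adjusted p = 0.00241 for Mycn and 1.03e-05 for Myc) and at 16 h (adjusted p = 0.0196 and 0.00256). The list as a whole, with 20 genes, had medians of 0.002 at 4 h and -0.20 at 16 h, or 0.03 at 16 h in the 7-library fit.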

How the data were processed

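RNA had been sequenced in 8 libraries of thymic ILC2, in 4 groups of 2 set by the labels. The authors deposited raw, unnormalized counts, a whole number for each gene in each library. Genome build mm10 and DESeq2 are named per the submitters' processing notes, with no version or role. The sources used here do not name the aligner, counter, strand setting or annotation. All columns were used, and 50462 gene IDs matched a symbol of GENCODE M21 (GRCm38) while 224 did not.

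The fit used edgeR 4.0.16 (R 4.3.3), with filterByExpr with a minimum count of 10, TMM scaling, a robust quasi-likelihood fit with 1 mean per group over all 8 libraries, and two-sided tests adjusted by Benjamini and Hochberg over 13644 genes, called at an adjusted p under 0.05. Adjusted p-values in the text are edgeR's unless another tool is named. Standard errors were taken as |log2 fold change| over the root of the F statistic, and 95% intervals use the t quantile of the fit. Levels are CPM of TMM-scaled library sizes, and levels per kb use M21 exon lengths. Library totals limit precision most for the genes with the fewest counts. Values in every library and full statistics are given for called genes, Atf4 and the 4 largest changes at each time with a mean log2 CPM of 3 or more; Chac1, Pycr1, Cth, Slc1a4 and others outside this rule were named after their values were seen. From the pathway lists, called genes or those with the smallest p are named, with genes called at both times without replicate 2 of GFP at 16 h. Promoter sequences are RefSeq's (GRCm38.p6). Of the markers and promoter sequences, 1 marker with the sum of its list and 1 sequence with a match are not reported here.

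Alternatives were DESeq2 1.42.0, limma 3.58.1 voom with quality weights, RLE scaling, library totals only, no filter, a minimum count of 30, no robust dispersion, only the 4 libraries compared, replicate blocks, a transcript length offset (lowess span 0.3), an adjusted p under 0.1 and leaving out each library. The procedure was tested on simulated data with equal spread in all libraries and changes larger than most of those seen here. No simulated library stood apart, so the effect of such a library on the calls was not tested. The 39 genes, the lists and the tests were chosen with earlier results of these data known. Figures were drawn with matplotlib 3.10.9.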

Additional observations from a re-analysis of the deposited data

How the results depend on the processing

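The number of the 39 genes called varied with the processing. At 4 h, against 0, it was 2 with DESeq2 and at an adjusted p under 0.1, 4 with no filter, 6 with limma voom, 1 with the length offset, 11 with only the 4 libraries compared (3.38% of all tested genes called), and 0 to 12 on leaving out 1 library, with 12 when either GFP library at 16 h was dropped. At 16 h, against 2, it was 9 with DESeq2 (7.71% of all tested genes called), 6 with no filter, 1 with library totals only, 1 with limma voom, 0 with only the 4 libraries compared, and 0 to 25 on leaving out 1 library (0 when either E47-ER library of that time was dropped, 25 when the first GFP library was, where 48.6% of all tested genes were called). For the difference between the effects it was 1 with no filter and 0 to 14 on leaving out 1 library, the 14 without the first GFP library at 16 h, where 35.5% of all tested genes were called. Between 16 h and 4 h it was 1 with limma voom, 6 with only the 4 libraries compared (7.32%) and 0 to 1 on leaving out 1 library in E47-ER cells, where the median lay between -0.1992 and -0.0677, and 0 to 20 on leaving out 1 library in GFP cells, the 20 without the same library, where 41.8% were called. The cause of this variation was not tested. Scaling by library totals only moved the median of all genes at 16 h to 0.115, against -0.0057. Of all tested genes, DESeq2 called 0.894% in either direction at 4 h and limma voom 2.94%. With no filter 0.551% were called there, and with the length offset 0.492%. At 16 h the share was 6.07% with no filter, 1.38% with library totals only and 0.381% with limma voom. It was 0.0458% there with only the 4 libraries compared.

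With a replicate block the numbers of members called were 0 within each time and 1 across times at 4 h, and 1 and 3 at 16 h. Of all tested genes, 0.0806% were called at 4 h with the block within each time and 0.205% with the block across times. The corresponding shares at 16 h were 0.396% and 1.43%. Under the block within each time the log2 fold change of Ddit4 was 0.0026 at 4 h and that of Aimp2 0.0197 at 16 h. For Aimp2 it was 0.0032 with the block across times. Replicate differences of the E47-ER and GFP cells correlated at 0.0237 at 4 h and -0.0901 at 16 h over 13644 genes. With 1 such difference per group, this cannot decide whether replicates of the same number share a mouse or culture. The value at 16 h also includes the GFP library that stood apart, and the labels do not give the origin of the replicates.

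Some log2 fold changes changed sign. On leaving out 1 library in turn, the values at 4 h ranged as Atf3 -0.0864 to 0.8117, Atf5 -0.2628 to 0.2148, Ddit4 -0.1549 to 0.1650, Sesn2 -0.1219 to 0.4318, Cebpb -0.0373 to 0.0847, Cebpg -0.0201 to 0.2399, Slc7a5 -0.3780 to 0.0855, Slc1a5 -0.1363 to 0.0513, Slc38a2 -0.1914 to 0.0781 and Yars -0.2566 to 0.0489. Those at 16 h ranged as Chac1 -0.6539 to 0.5497, Cebpb -0.7273 to 0.0287, Slc7a5 -0.7363 to 0.3002, Slc7a1 -0.4764 to 0.4002, Slc1a5 -0.1646 to 0.0980, Mthfd2 -0.1103 to 0.0446, Aldh18a1 -0.2293 to 0.6581, Aars -0.1666 to 0.6257, Wars -0.3639 to 0.1510, Iars -0.5026 to 0.4046, Aimp2 -0.2778 to 0.3531, Herpud1 -0.0603 to 0.2443, Mthfd1l -0.6162 to 0.2990 and Myc -0.5693 to 0.0312. Ddit4 at 4 h was at 0.0008 with DESeq2 and with RLE scaling, 0.0037 with limma voom and 0.0275 with the length offset. At 16 h, library totals only gave Slc1a5 0.0703, Slc38a2 0.0549, Mthfd2 0.0885 and Aimp2 0.0855, no filter gave Slc1a5 0.0152, Mthfd2 0.0260 and Aimp2 0.0371, and the length offset gave Ddit4 0.0136, Aars -0.0014 and Aimp2 0.2196.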
